A study of Mus musculus with 9 samples.

Results

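The angiopoietin and Tie receptor system was followed through 7 genes, taken by symbol from the 18349 genes listed for each library. These were the ligand genes Angpt1, Angpt2 and Angpt4, the receptor genes Tek and Tie1, the phosphatase gene Ptprb and the matrix gene Svep1. All 7 were listed, and all 7 passed the filter on low counts with 15010 genes in all. Iris RNA from C57BL/6J mice was sequenced in 9 libraries, 3 in each of 3 groups, and 3 irises of 1 genotype were pooled for a library. Sham irises came from VEGFR3 fl/fl mice whose cornea received PBS. Injured VEGFR3 fl/fl irises came from mice whose cornea was exposed at 6 weeks of age to sodium hydroxide (1 M, 0.5 μL, 60 seconds), the corneal alkali injury. Injured VEGFR3 iLECko irises came from mice with the same injury that also carried Prox1-CreERT2, a Cre recombinase that tamoxifen activates in cells expressing Prox1. Tamoxifen was given at 80 mg/kg on days 13 to 17, littermates without Cre included, and irises were taken at 10 weeks of age, 28 days after injury. There was no sham group with Cre, so the genotype was compared only among injured irises.

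Angiopoietins are secreted ligands of Tie2, the receptor tyrosine kinase that Tek encodes and that endothelial cells carry. Angpt1 activates Tie2 and holds vessels quiescent, whereas Angpt2, which endothelial cells store and release, can block or activate it depending on the setting. Tie1 is a related receptor that pairs with Tie2, Ptprb encodes the phosphatase VE-PTP that switches Tie2 off, and Svep1 encodes a large matrix protein that binds Tie1. In the eye this system is known for its part in Schlemm's canal, in retinal vessels and in lymphatic growth.

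Totals ranged from 16617187 to 18306359 counts per library. Levels are given as CPM, the counts of a gene scaled to a common library total with edgeR's TMM factors. A differentially expressed gene (DEG) had a Benjamini-Hochberg adjusted p under 0.05 across the genes tested in edgeR's quasi-likelihood fit of all 9 libraries and a change of more than 1.5-fold. Whether the pools of a group came from separate litters was not stated, so p-values measure the spread between these pools. Replicates differed by more than counting noise, and injured VEGFR3 fl/fl replicate 1 stood furthest from its group, with a chi-square per degree of freedom of 76.2 and 67.4 against the other two libraries. Iris smooth muscle markers summed to between 1664.5 and 10302 CPM, pigment cell markers to between 3344.1 and 29415 CPM, and the ciliary body markers to between 1.44 and 3.64 CPM. Flt4, the gene for VEGFR3, was not lower in the libraries labelled VEGFR3 iLECko, at 27.9, 20.96 and 27.4 CPM against 16.8, 20.7 and 23.0 CPM in injured VEGFR3 fl/fl (edgeR log2 fold change 0.33, adjusted p = 0.200). These libraries are called by their label throughout. Deletion was directed to cells expressing Prox1, and Flt4 already averaged 14.6 CPM in Sham. Flt4 of the whole iris thus cannot tell whether deletion took place. By LYVE1 staining, the paper found iridial lymphangiogenesis blocked in VEGFR3 iLECko mice. Prox1 stood at 1.09 CPM on average in the libraries so labelled and at 2.68 CPM in injured VEGFR3 fl/fl (edgeR adjusted p = 0.256).

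After injury, 5 of the 7 genes were upregulated DEGs in VEGFR3 fl/fl irises and 0 were downregulated, by edgeR. Of all genes tested, 22.1% were upregulated and 17.5% downregulated in this comparison. Svep1 and Angpt4 had the steepest rises among the 7, Angpt2 rose more than 3-fold, Tie1 rose 2.25-fold, and Angpt1 rose less. Tek and Ptprb did not pass the test. DESeq2 called the same number of members in each direction, 5 and 0, and with either tool 5 of the 7 had an unadjusted p under 0.05, as 64.1% of all genes tested had with edgeR. The 7 log2 fold changes had a median of 1.17, beside 0.010 over all genes tested. In 6 of the 7 genes every injured VEGFR3 fl/fl library was higher than every Sham library, as in 33.9% of all genes tested.

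**Figure D1:**
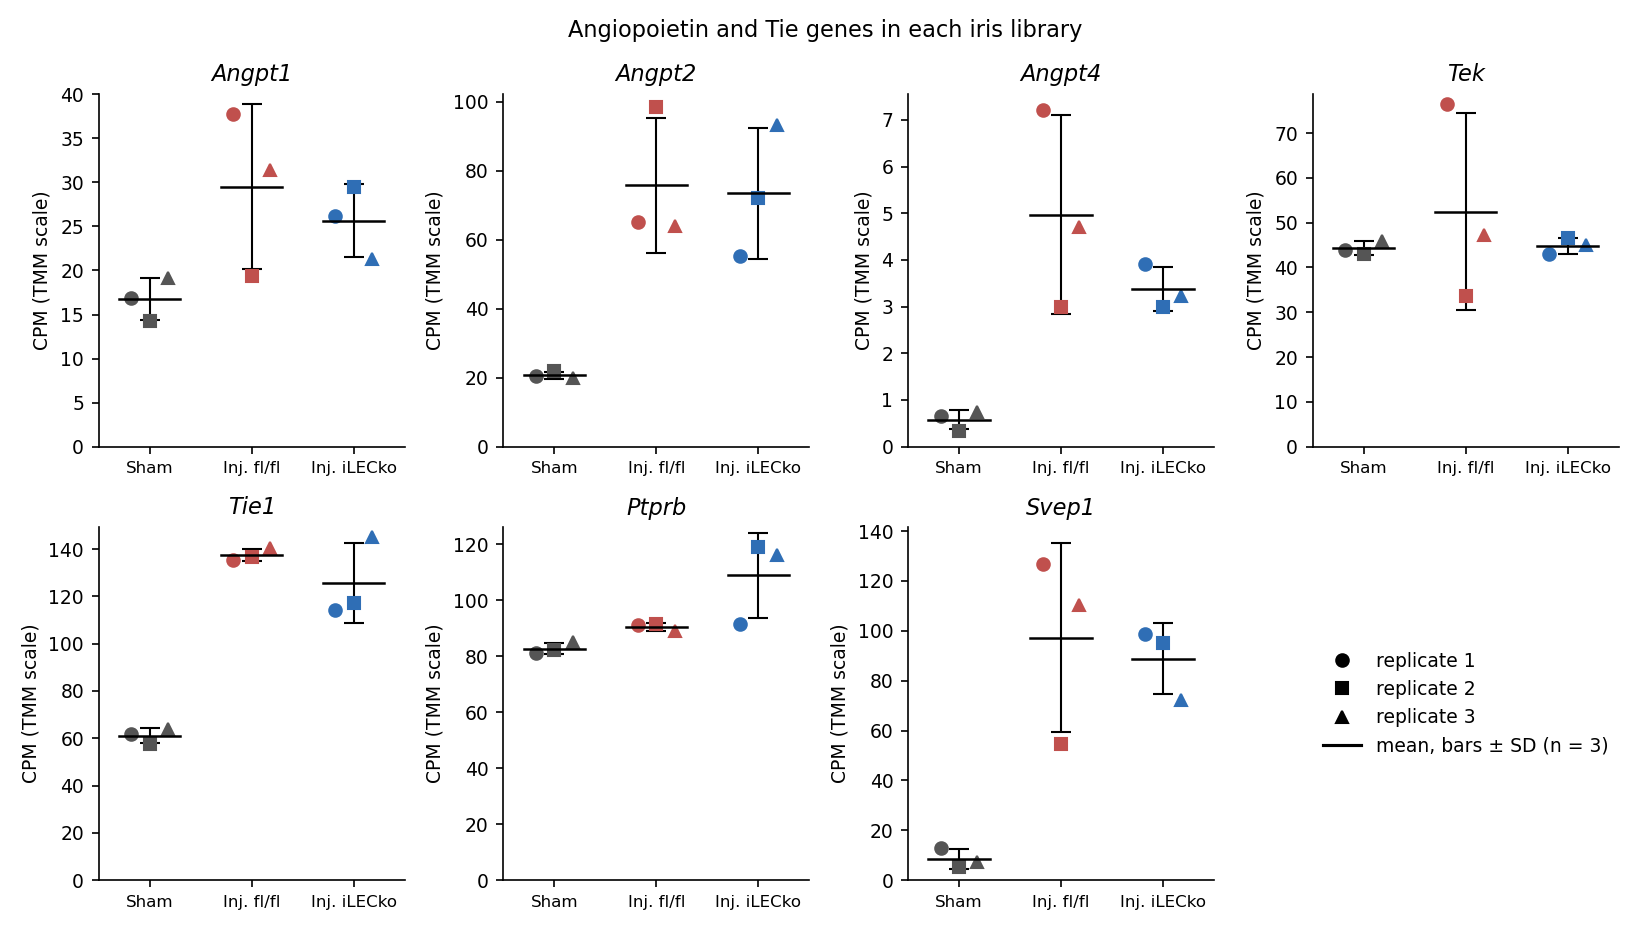
Levels of the 7 genes in each of 9 libraries, in CPM on the TMM scale, with a separate linear axis from 0 for each gene. Circles, squares and triangles are replicates 1, 2 and 3, and bars show the mean ± SD of 3 libraries. Tie1, Angpt2, Angpt4 and Svep1 lie clear of Sham in all 6 injured libraries, while Tek spreads from 33.6 to 76.5 CPM within injured VEGFR3 fl/fl.

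Angpt1, the agonist ligand, lies on the minus strand at chr15:42424723-42676977 (positions throughout are from GENCODE M21 on GRCm38, the mm10 build that the submitters' notes name). It stood at 16.9, 14.3 and 19.1 CPM in Sham replicates 1 to 3, at 37.7, 19.3 and 31.4 CPM in injured VEGFR3 fl/fl and at 26.2, 29.5 and 21.3 CPM in irises labelled VEGFR3 iLECko. All 6 injured libraries were above the Sham libraries, but injured VEGFR3 fl/fl replicate 2 was so by only a small margin. Angpt1 was upregulated after injury with a log2 fold change of 0.81 (SE 0.23, edgeR adjusted p = 0.0135). Without Sham replicate 2, the lowest library, its adjusted p was 0.0520 by edgeR, with a log2 fold change of 0.71. Gm17473, an antisense gene, overlaps 737 exonic bases of Angpt1, and strand use in counting was not stated, so reads of the pair cannot be told apart there.

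Angpt2, the context-dependent ligand, lies on the minus strand at chr8:18690263-18741562, within the span of Mcph1 on the opposite strand and sharing 0 exonic bases with it. It stood at 20.5, 21.8 and 19.8 CPM in Sham, at 65.0, 98.4 and 64.0 CPM in injured VEGFR3 fl/fl and at 55.2, 72.0 and 93.1 CPM in irises labelled VEGFR3 iLECko. The Sham libraries were close together, and the groups of injured libraries covered almost the same range. Angpt2 was upregulated after injury with a log2 fold change of 1.87 (SE 0.22, edgeR adjusted p = 7.81e-05), or 3.66-fold. Its highest value within each injured group fell in injured VEGFR3 fl/fl replicate 2 and in the library labelled VEGFR3 iLECko replicate 3. The 4 platelet markers summed to 124.87 and 119.72 CPM in those same libraries, against 32.0 to 47.1 CPM in the other 4 injured libraries and 18.2 to 21.4 CPM in Sham, mostly from Pf4. Other sums peaked in the same libraries, namely sprouting endothelium (1111.1 and 1186.6 CPM), iris smooth muscle (3485.9 and 3955.4 CPM) and integrin genes (1773 and 1862.1 CPM). Sums of blood endothelial, pericyte and fibroblast markers did not peak in both. The part of these cell types in the Angpt2 values was not tested.

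Angpt4, the least abundant ligand, lies on the plus strand at chr2:151911210-151945337. It had 12, 6 and 13 counts in Sham, 119, 51 and 82 after injury of VEGFR3 fl/fl mice and 67, 53 and 56 counts in irises labelled VEGFR3 iLECko. The lowest injured library thus held several times the counts of the highest Sham library. On the CPM scale its mean went from 0.579 ± 0.210 (SD, n = 3) in Sham to 4.97 ± 2.13 (SD, n = 3) after injury. Angpt4 was upregulated after injury with a log2 fold change of 3.09 (SE 0.40, edgeR adjusted p = 0.000150), or 8.49-fold. With so few Sham counts the size of this change is less precise than for the other ligands, and its 95% confidence interval ran from 2.18 to 3.99.

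Tek, the receptor gene whose product binds all the angiopoietins, lies on the plus strand at chr4:94739289-94874976. It stood at 44.0, 43.0 and 46.0 CPM in Sham, at 76.5, 33.6 and 47.1 CPM in injured VEGFR3 fl/fl and at 43.0, 46.6 and 45.01 CPM in irises labelled VEGFR3 iLECko. Sham libraries and libraries labelled VEGFR3 iLECko lay within a few CPM of each other, while injured VEGFR3 fl/fl held both the highest and the lowest of all 9 values. The log2 fold change of injured VEGFR3 fl/fl against Sham was 0.24 (SE 0.24, 95% interval -0.29 to 0.78, edgeR adjusted p = 0.403), an interval that still includes a rise of more than 1.5-fold. Without injured VEGFR3 fl/fl replicate 1 it was -0.13, and without replicate 2 it was 0.48, so its direction rests on single libraries.

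The stretch of 250 bases before the RefSeq start is printed for Angpt4 and Tek, the members with a RefSeq window free of annotated exons. ETS factors, which act widely in endothelial genes, bind around the core GGAA, here searched as GGAA or TTCC on the plus strand so that both strands are covered, and shown in capitals (5′ to 3′ on the gene's strand, GRCm38.p6). The windows are chr2:151910957-151911206 for Angpt4 and chr4:94739039-94739288 for Tek.
Angpt4: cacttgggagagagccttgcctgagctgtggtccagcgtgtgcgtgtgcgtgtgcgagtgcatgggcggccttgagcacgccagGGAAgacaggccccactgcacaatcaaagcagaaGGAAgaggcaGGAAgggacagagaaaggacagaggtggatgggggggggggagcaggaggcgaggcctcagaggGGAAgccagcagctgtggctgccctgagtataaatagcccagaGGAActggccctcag
Tek: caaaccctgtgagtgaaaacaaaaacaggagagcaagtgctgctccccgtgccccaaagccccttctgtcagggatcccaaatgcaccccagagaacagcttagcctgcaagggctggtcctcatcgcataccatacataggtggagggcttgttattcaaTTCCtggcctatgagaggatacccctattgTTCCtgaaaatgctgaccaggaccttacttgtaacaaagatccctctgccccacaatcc
The Angpt4 window held 5 such matches and the Tek window 2. Over all 32851 RefSeq mouse promoter windows of the same length, 93.4% held at least 1 match with a median of 3, 18% held at least as many as Angpt4, and 76.8% held at least as many as Tek. A match of 4 letters is a description of the sequence and not a binding site. RefSeq windows were matched for 4 of the 7 genes, and those of Tie1 and Svep1, which run into annotated exons, are not shown. They held 7 and 6 matches, and 3.82% and 8.69% of all windows held at least as many. A link between matches and the changes of these genes was not tested.

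Tie1, the co-receptor gene, lies on the minus strand at chr4:118471191-118490061. It stood at 61.8, 57.7 and 63.9 CPM in Sham, at 136, 137 and 140.3 CPM in injured VEGFR3 fl/fl and at 114, 117 and 145 CPM in irises labelled VEGFR3 iLECko. Every injured library was far above every Sham library, and the injured VEGFR3 fl/fl libraries were within a few CPM of each other. Tie1 was upregulated after injury with a log2 fold change of 1.17 (SE 0.096, edgeR adjusted p = 9.35e-06), or 2.25-fold. This was the most precise rise among the 7 genes, with a 95% interval from 0.95 to 1.39. Tie1 and Tek, whose products form a receptor pair, thus stood at different changes in the same libraries.

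Ptprb, the phosphatase gene, lies on the plus strand at chr10:116275523-116389535. It stood at 81.1, 82.2 and 85.1 CPM in Sham, at 91.2, 91.5 and 88.9 CPM in injured VEGFR3 fl/fl and at 91.6, 119 and 116 CPM in irises labelled VEGFR3 iLECko. Each injured VEGFR3 fl/fl library was slightly higher than each Sham library, and replicates 2 and 3 of the libraries labelled VEGFR3 iLECko were higher still. The log2 fold change after injury was 0.13 (SE 0.096, 95% interval -0.088 to 0.35, edgeR adjusted p = 0.274). With library size as the only scaling, which moved the median of all genes to -0.16 on the log2 scale, the change of Ptprb was -0.043.

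Svep1, the matrix gene whose product binds Tie1 and integrin alpha 9, lies on the minus strand at chr4:58042442-58206859. It stood at 13.1, 5.37 and 7.43 CPM in Sham, at 127, 54.5 and 110.2 CPM in injured VEGFR3 fl/fl and at 98.9, 95.04 and 72.4 CPM in irises labelled VEGFR3 iLECko. The lowest injured library was more than 4 times as high as the highest Sham library. Svep1 was upregulated after injury with a log2 fold change of 3.49 (SE 0.39, edgeR adjusted p = 5.73e-05), or 11.2-fold. Fibroblast markers, of which 4 of 6 were upregulated, summed to 3799.5 to 4365.5 CPM in Sham and 15501 to 22500 CPM in injured VEGFR3 fl/fl, and among those libraries both Svep1 and the fibroblast sum were lowest in replicate 2. In the libraries labelled VEGFR3 iLECko, Svep1 was lowest in replicate 3 but the fibroblast sum in replicate 2 (16406 CPM). In Sham, Svep1 was lowest in replicate 2, where the fibroblast sum was highest. The part of fibroblast content in the rise of Svep1 was not tested. Gm26889, a noncoding gene on the opposite strand, overlaps 2244 exonic bases of Svep1, so reads of the pair cannot be told apart there.

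Within the injured VEGFR3 fl/fl group, Angpt1, Angpt4, Tek and Svep1 were each highest in replicate 1 and lowest in replicate 2, whereas Angpt2 was highest in replicate 2. The pericyte markers, none of them at 0, had their lowest sum of this group in replicate 1, at 1088.6 CPM, and their highest in replicate 2, at 1833.9 CPM. Rgs5 alone made up 480 and 1083 CPM of these, and 5 of the 7 were lowest in replicate 1. So were 8 of 8 sprouting endothelium markers, 6 of 6 pigment cell markers and 6 of 7 smooth muscle markers. Of 12 blood endothelial markers 7 were lowest and 5 highest there, and of 6 fibroblast markers 1 was lowest and 3 highest. Of 7 lymphatic markers, 5 were highest in replicate 1 (Ccl21a, Mmrn1, Pdpn, Prox1 and Reln) and 2 were lowest there (Flt4 and Lyve1). Without replicate 1 the changes of Svep1 and Tie1 after injury were 3.25 and 1.18 on the log2 scale, and both remained DEGs (edgeR adjusted p = 8.82e-05 and 2.14e-05). Angpt4 was at 2.72 and also remained a DEG (edgeR adjusted p = 0.000205). Angpt1 was at 0.597, only just over 1.5-fold (edgeR adjusted p = 0.0414), and Tek was at -0.13.

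The libraries labelled VEGFR3 iLECko were then set against injured VEGFR3 fl/fl. By edgeR, 0 of the 7 genes were upregulated and 0 downregulated, DESeq2 also called 0, and 1 of the 7 had an unadjusted p under 0.05 by edgeR. Of all genes tested, 0.573% were upregulated, 0.466% downregulated and 24.5% had an unadjusted p under 0.05. The 1 gene was Ptprb, at 109 ± 15.1 CPM (SD, n = 3) in the libraries labelled VEGFR3 iLECko against 90.5 ± 1.42 CPM (SD, n = 3) in the injured VEGFR3 fl/fl irises. Its log2 fold change was 0.27 (SE 0.096, 95% interval 0.052 to 0.48), and it failed the correction (edgeR adjusted p = 0.145). Every library so labelled was higher than every injured VEGFR3 fl/fl library for Ptprb, as in 12.4% of all genes tested, although replicate 1 was higher by a small margin.

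For the other 6 genes the libraries of the injured groups overlapped. Angpt4 differed by -0.56 on the log2 scale, with a 95% interval from -1.34 to 0.23 (edgeR adjusted p = 0.338). It differed by -0.18 without injured VEGFR3 fl/fl replicate 1 and by -0.82 without replicate 2. For Tie1 the difference was -0.13, with an interval from -0.34 to 0.082 that lies within a 1.5-fold change (edgeR adjusted p = 0.408). Angpt2 differed by -0.046, with an interval from -0.51 to 0.42 (edgeR adjusted p = 0.912). The intervals of Angpt1 (-0.72 to 0.32), Tek (-0.76 to 0.31) and Svep1 (-0.89 to 0.63) included changes of 1.5-fold, so a difference of that size is not excluded for them. For Angpt1, Tek and Svep1 the sign turned without injured VEGFR3 fl/fl replicate 1, to 0.020, 0.16 and 0.11. The Y-linked genes summed to at most 1.11 CPM in the libraries labelled VEGFR3 iLECko and to 151, 136 and 0.804 CPM in injured VEGFR3 fl/fl, so Y-linked expression moved with this comparison. The paper used male and female mice, and the sex of each pool was not stated. Sums this near 0 mark pools without males, so sex largely went with the label and cannot be told apart from it here. With the Y-linked level as a covariate 0 of the 7 genes were called and 0 had an unadjusted p under 0.05 by edgeR. Of the 15010 genes tested, 1347 had such a p with the covariate and 3674 without it. Because the covariate largely follows the groups, this fit cannot separate the Y-linked level from the label.

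Against Sham, the libraries labelled VEGFR3 iLECko had 5 upregulated and 0 downregulated members by edgeR, where 19.7% and 15% of all genes tested were called, and 6 of the 7 had an unadjusted p under 0.05 (59.9% of all genes tested). In 6 of the 7 every such library was above every Sham library (33.3% of all genes tested). This comparison shares libraries with the others, so its values are given only beside them. Y-linked expression moved with it too. The Y-linked genes summed to 51.1, 82.3 and 167 CPM in Sham against at most 1.11 CPM in the labelled libraries, and 4 of 4 were downregulated by edgeR. The log2 fold changes of injured VEGFR3 fl/fl and of the libraries labelled VEGFR3 iLECko against Sham were 3.49 and 3.36 for Svep1. They were 3.09 and 2.53 for Angpt4, 1.87 and 1.83 for Angpt2, and 1.17 and 1.04 for Tie1. Tek stood at 0.24 and 0.018. Angpt1 was at 0.81 and 0.61, and its second call was marginal (edgeR adjusted p = 0.0490) and was lost in 10 of 17 alternative settings. Ptprb stood at 0.13 and 0.40, and the second (SE 0.096, edgeR adjusted p = 0.00668) passed the p threshold but not the 1.5-fold threshold.

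**Figure D2:**
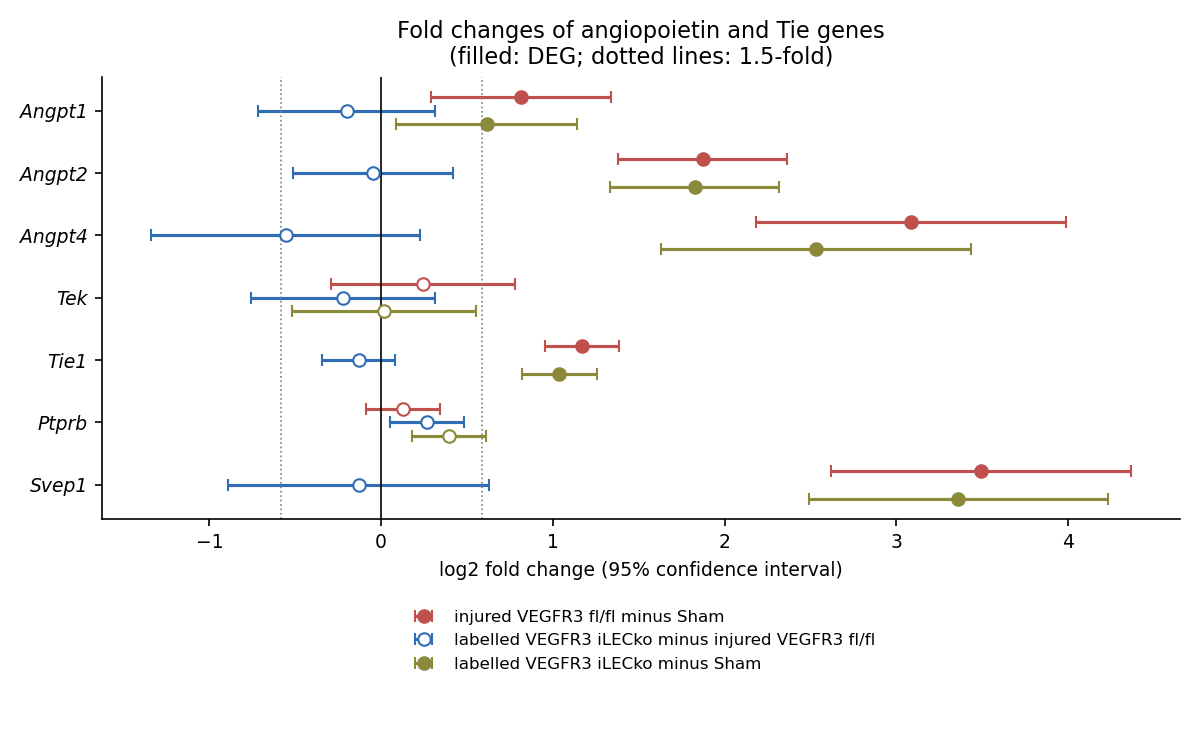
Log2 fold changes of the 7 genes with their 95% confidence intervals in 3 comparisons, from edgeR's fit on 9 libraries. Filled points are DEGs and dotted lines mark 1.5-fold. The 5 genes that rose after injury have filled points in both comparisons with Sham, and all 7 points for the labelled VEGFR3 iLECko libraries against injured VEGFR3 fl/fl are open.

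A ratio between a pair of genes within a library does not depend on library scaling. The ratio of Angpt2 to Angpt1 CPM was 1.22, 1.52 and 1.03 in Sham, 1.72, 5.07 and 2.04 in injured VEGFR3 fl/fl irises and 2.10, 2.44 and 4.36 in irises labelled VEGFR3 iLECko. All 6 injured libraries lay above the 3 Sham libraries, and the ratio was highest in injured VEGFR3 fl/fl replicate 2 and the library labelled VEGFR3 iLECko replicate 3. The log2 ratio was higher by 1.07 in injured VEGFR3 fl/fl than in Sham (exact two-sided permutation p = 0.1, the smallest that 3 libraries against 3 allow, 0.18 adjusted over 9 ratio comparisons), and by 0.59 without injured VEGFR3 fl/fl replicate 2. Between the injured groups the log2 ratio differed by 0.11 (exact permutation p = 0.7), and leaving out single libraries moved this between -0.20 and 0.59.

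The ratio of Tie1 to Tek was 1.40, 1.34 and 1.39 in Sham, 1.77, 4.05 and 2.97 in injured VEGFR3 fl/fl irises and 2.65, 2.52 and 3.22 in irises labelled VEGFR3 iLECko. Sham libraries had nearly the same ratio, and all injured libraries were above them. The log2 ratio was higher by 1.01 in injured VEGFR3 fl/fl than in Sham, and by 1.01 in the libraries labelled VEGFR3 iLECko (exact permutation p = 0.1 for each, adjusted 0.18). Between the injured groups the difference was 0.0028 (exact permutation p = 1). The log2 ratio of Ptprb to Tek was 0.90 ± 0.028 (SD, n = 3) in Sham, 0.87 ± 0.60 in injured VEGFR3 fl/fl and 1.27 ± 0.16 in the libraries labelled VEGFR3 iLECko, and only in the last group did all libraries lie above Sham (exact permutation p = 0.1, adjusted 0.18).

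**Figure D3:**
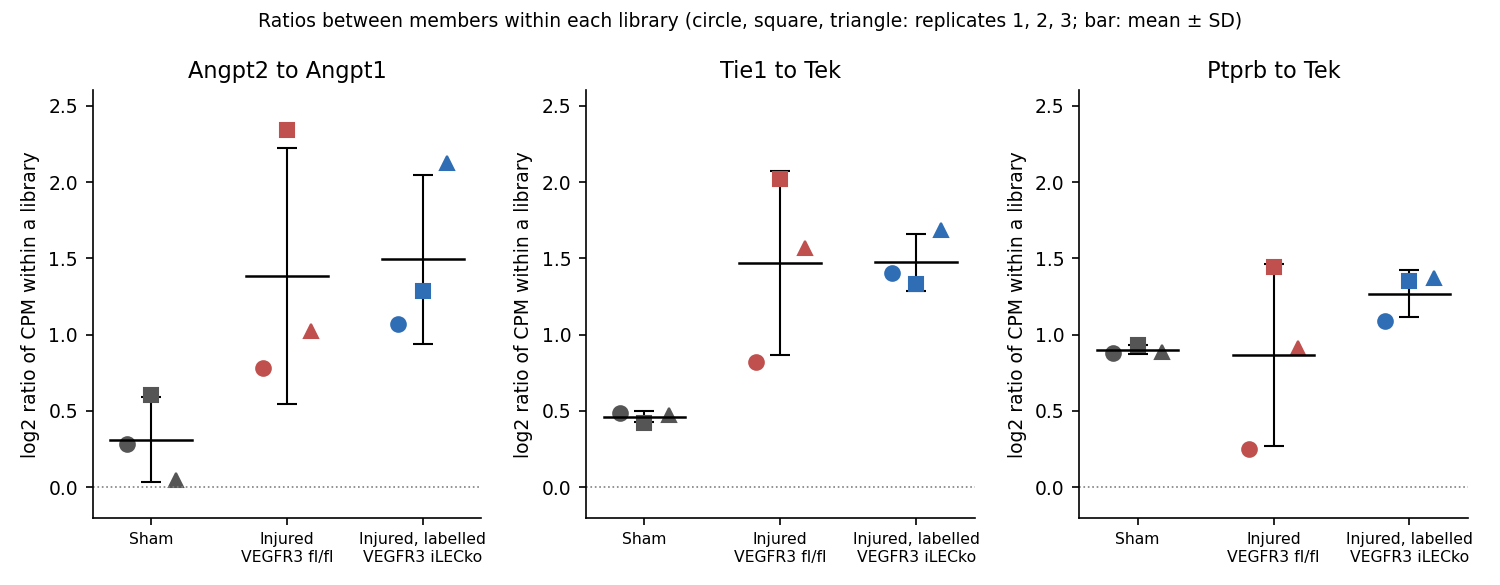
Log2 ratios of CPM within each library for Angpt2 to Angpt1, Tie1 to Tek and Ptprb to Tek, by group, with the mean ± SD of 3 libraries. The first 2 ratios lie above Sham in every injured library, and injured VEGFR3 fl/fl replicate 2 is the highest of its group in all 3 panels.

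Tek, Tie1, Ptprb and Angpt2 are expressed mainly by endothelial cells, so the changes of the 7 genes were set beside those of endothelial markers. In bulk RNA, fewer cells of a type and less RNA per cell cannot be told apart. Of 12 blood endothelial markers, none of them at 0, 9 were upregulated and 2 downregulated after injury, with a median log2 fold change of 1.39. Their summed level was 894 to 948 CPM in Sham, 1956.4 to 2074.3 CPM in injured VEGFR3 fl/fl and 1848.4 to 2062.9 CPM in the libraries labelled VEGFR3 iLECko. The largest rises were those of Pecam1 (2.61) and the transcription factor gene Erg (2.198), and the falls were those of the VEGF receptor gene Flt1 (-0.84) and the tight junction gene Cldn5 (-0.79). Tek and Ptprb each had a smaller change than 10 of the 12 markers and Tie1 a smaller change than 8, whereas Angpt4 and Svep1 exceeded all 12.

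Relative to the mean log2 level of the 12 markers in the same library, injured VEGFR3 fl/fl minus Sham was -0.97 for Tek and -0.997 for Ptprb on the log2 scale, with no overlap between the groups (exact permutation p = 0.1 for each, 0.191 adjusted over 21 comparisons). Tek and Ptprb were also lower relative to Cdh5 alone (-1.89 and -1.92) and to Pecam1 alone (-2.45 and -2.48). Tie1 differed by 0.043 relative to the 12 markers (exact permutation p = 1) but was lower relative to Cdh5 (-0.88) and Pecam1 (-1.44). Angpt2 was higher by 0.71 relative to the 12 markers but lower relative to Cdh5 (-0.21) and Pecam1 (-0.77), so its direction depended on the reference. Svep1 was higher against each reference, by 2.36, 1.43 and 0.87, and so was Angpt4, by 1.71, 0.79 and 0.23, in injured VEGFR3 fl/fl. Angpt1 differed by -0.36, -1.28 and -1.84. Against the 12 markers its groups overlapped (exact permutation p = 0.4, adjusted 0.56), and the difference was -0.094 without injured VEGFR3 fl/fl replicate 2.

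In the libraries labelled VEGFR3 iLECko against injured VEGFR3 fl/fl, 0 of the 12 markers were called by edgeR and 4 had an unadjusted p under 0.05. Ptprb was higher by 0.34 relative to the 12 markers, with no overlap (exact permutation p = 0.1, adjusted 0.191), and by 0.16 relative to Cdh5 and 0.27 relative to Pecam1. For the other 6 genes this difference lay between -0.38 and 0.036.

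The other genes through which the system acts were described by lists. Of 13 genes that carry Tie2 signals inside the cell, 5 were upregulated and 2 downregulated after injury, with a median log2 fold change of 0.30. The largest rises were those of Dok2, a docking protein of Tie2 that leukocytes also use (2.33 to 11.1 CPM, log2 fold change 2.25, edgeR adjusted p = 0.000237), and Nos3, the endothelial nitric oxide synthase (13.7 to 41.6 CPM, 1.61, adjusted p = 1.80e-06). The falls were those of the adaptor genes Grb7 (0.879 to 0.254 CPM, -1.76, edgeR adjusted p = 0.00953) and Grb14 (36.3 to 13.2 CPM, -1.46, adjusted p = 0.000123). Foxo1, the transcription factor that Tie2 signals restrain and that drives Angpt2, stood at a log2 fold change of 0.22 and did not pass the test (edgeR adjusted p = 0.0887). The rises numbered 3 with library size as the only scaling.

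Of 6 integrin genes whose products bind angiopoietins or Svep1, 4 were upregulated and 1 downregulated after injury. Itgb3 rose from 1.64 to 26.3 CPM (log2 fold change 3.99, edgeR adjusted p = 4.09e-05), and Itga5, of the fibronectin receptor, from 46.9 to 190.5 CPM (2.02, adjusted p = 8.37e-06). Itga9, whose product is a receptor for Svep1, fell from 76.4 to 31.8 CPM (-1.26, edgeR adjusted p = 0.000279), while Svep1 rose. Of 5 angiopoietin-like genes tested, from a list of 7, 2 rose and 2 fell. The rise of Angptl7 rested on injured VEGFR3 fl/fl replicate 1, at 87.5 CPM beside 0.820 and 0.976 CPM in replicates 2 and 3, and without that library 1 gene of the list was upregulated. Its call was also lost without any 1 of the Sham libraries (edgeR adjusted p = 0.0657 to 0.0771). Angptl4 rose by 0.73, whereas Angptl1 fell by 1.02 and Angptl2 fell by 0.79 on the log2 scale (edgeR adjusted p = 0.00397, 0.0116 and 0.00348).

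Of the receptor phosphatases related to Ptprb, 2 were tested and both rose after injury. Ptpro rose from 3.12 to 13.6 CPM (log2 fold change 2.12, edgeR adjusted p = 9.23e-06) and Ptprj from 36.9 to 64.3 CPM (0.80, adjusted p = 1.06e-05). Ptpro was also downregulated in the libraries labelled VEGFR3 iLECko, at 7.48, 7.19 and 7.37 CPM against 16.9, 11.5 and 12.5 CPM in injured VEGFR3 fl/fl (-0.89, edgeR adjusted p = 0.0417), beside the Ptprb difference of 0.27 that did not pass the test. This call of Ptpro was lost in 10 of 17 alternatives, among them the fit on the 6 libraries compared (edgeR adjusted p = 0.117) and the fits without injured VEGFR3 fl/fl replicate 1 (0.0568) or any 1 of the libraries labelled VEGFR3 iLECko (0.0816 to 0.153). In the lists for signaling, integrins and angiopoietin-like genes, 0 genes were called between the injured groups by edgeR, and 2, 1 and 2 genes had an unadjusted p under 0.05. DESeq2 called 1 angiopoietin-like gene downregulated there and 0 in the other 2 lists.

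**Figure D4:**
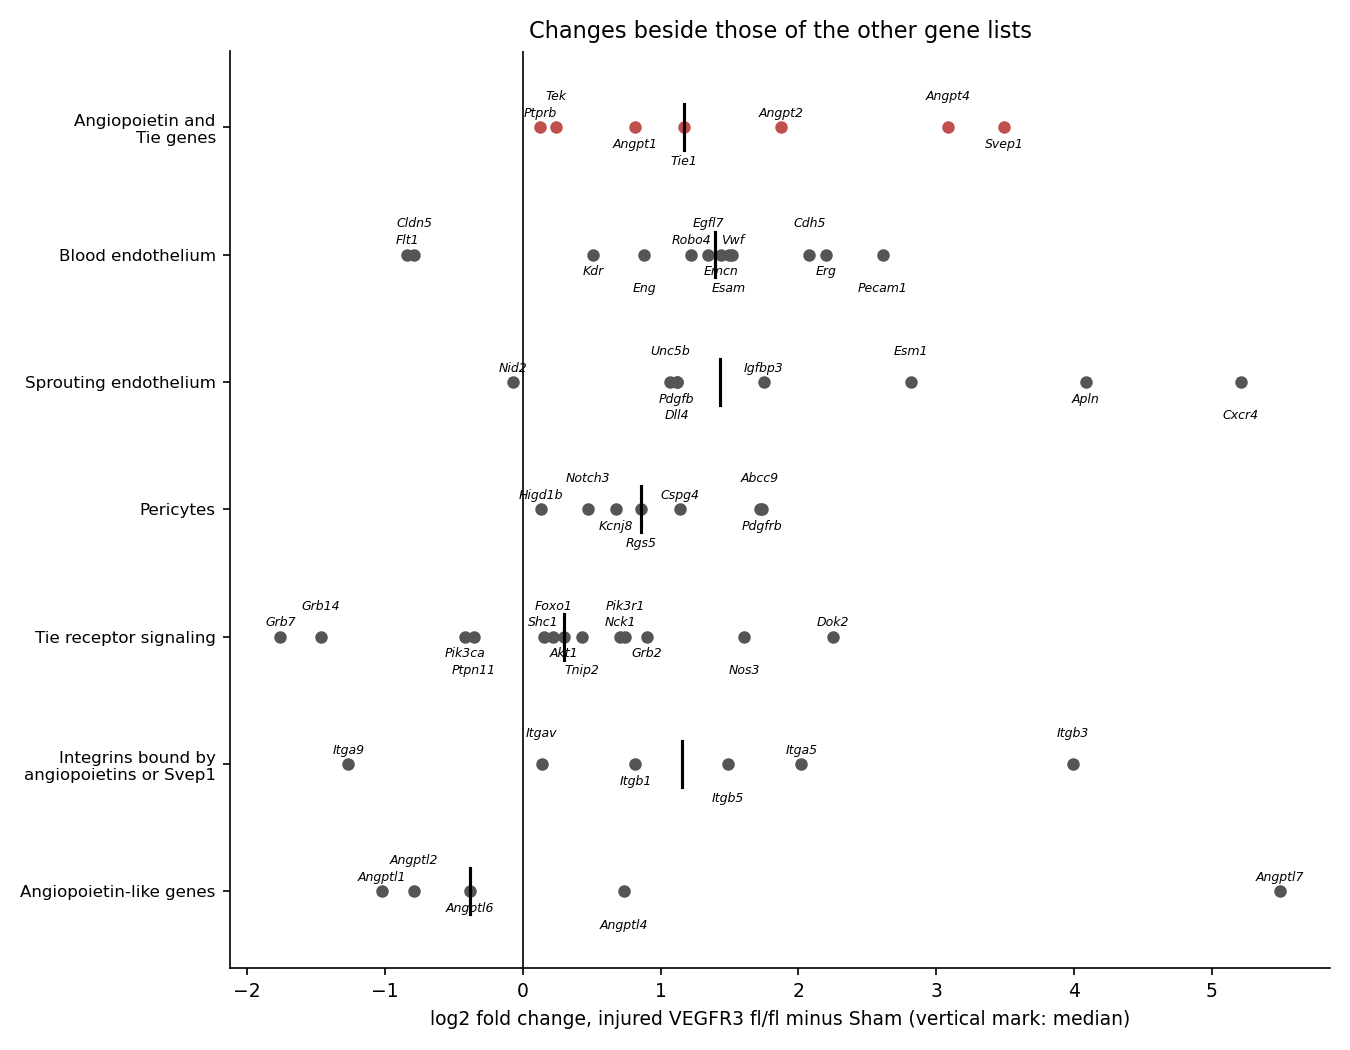
Log2 fold changes of injured VEGFR3 fl/fl against Sham for the 7 genes and for 6 lists, one point per tested gene with its symbol, and the median as a vertical mark. The 7 genes spread from 0.13 to 3.49, and the blood endothelial markers from -0.84 to 2.61.

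Markers of sprouting endothelium, which include further genes of the tip cell such as Esm1, were upregulated in 7 of 8 cases after injury and downregulated in 0 (edgeR), with 7 at an unadjusted p under 0.05 and a median log2 fold change of 1.43. Cxcr4, a chemokine receptor that leukocytes also carry, rose most (3.74 to 138 CPM), followed by the tip cell ligand Apln (3.11 to 52.9 CPM). Of 7 pericyte markers 5 rose, led by Pdgfrb (136 to 452 CPM) and Abcc9 (18.8 to 61.9 CPM), and the sum went from 664 to 738 CPM in Sham to 1088.6 to 1833.9 CPM in injured VEGFR3 fl/fl.

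Of 7 lymphatic markers 2 were called upregulated after injury, Ccl21a and Pdpn, and 1 downregulated, Reln (504.9 to 126 CPM). By staining, the paper found lymphatic vessels in injured VEGFR3 fl/fl irises, and their growth was blocked in VEGFR3 iLECko irises. It found sham irises to be free of lymphatics. Pdpn and Reln were nonetheless high in Sham, where Prox1, Lyve1 and Mmrn1 stood at 1.84, 3.94 and 1.89 CPM. Whether changes of Pdpn and Reln report lymphatic cells here was not tested. Lyve1 went from 3.94 to 1.72 CPM after injury and was not called, with injured VEGFR3 fl/fl libraries from 0.303 to 3.98 CPM. RNA of the whole iris at such levels is a different measure from stained vessel coverage. The call of Ccl21a, a lymphatic endothelial chemokine, rested on injured VEGFR3 fl/fl replicate 1, at 92.4 CPM beside 4.62 and 0 CPM in replicates 2 and 3, and its groups overlapped. Without that library its log2 fold change went from 5.31 to 1.51 (edgeR adjusted p = 0.280), and its call was also lost without any 1 of the Sham libraries (0.0646 to 0.0770). Ccl21a averaged 0.211 CPM in the libraries labelled VEGFR3 iLECko, a difference from injured VEGFR3 fl/fl that did not pass the test (edgeR adjusted p = 0.0877). The rise of Pdpn (337.5 to 521 CPM, 0.63 on the log2 scale) was 0.49 without injured VEGFR3 fl/fl replicate 1, below 1.5-fold. Reln was upregulated in the libraries labelled VEGFR3 iLECko against injured VEGFR3 fl/fl (126 to 212 CPM, edgeR adjusted p = 0.0361), a call lost in 9 of 17 alternatives, among them the fits on the 6 libraries compared (0.0989), with the replicate block (0.0721) and with the Y-linked covariate (0.291).

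Of 8 macrophage markers 7 rose after injury, led by Cd68 (41.1 to 669 CPM) and Fcgr1 (5.12 to 61.7 CPM), and their sum went from at most 264 CPM in Sham to between 1986.2 and 2086.1 CPM in injured VEGFR3 fl/fl. It lay between 1368.3 and 1445.9 CPM in the libraries labelled VEGFR3 iLECko, below every injured VEGFR3 fl/fl library. Between the injured groups 3 of the 8 were downregulated, 1 was upregulated and 6 had an unadjusted p under 0.05 by edgeR, so macrophage markers moved with this comparison, beside the lower Ptpro. Those lower in the libraries labelled VEGFR3 iLECko were the Fc receptor gene Fcgr1 (-1.03, edgeR adjusted p = 0.00861), the complement gene C1qa (-0.79, 0.0263) and Adgre1, the gene for F4/80 (-0.60, 0.0278). Cd14, a lipopolysaccharide receptor gene, was higher (0.86, edgeR adjusted p = 0.0407). These calls were lost in 2, 8, 10 and 11 of 17 alternatives.

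Of the other lists, 5 of 5 T cell markers rose, led by Cd3g (0.0185 to 4.98 CPM) and Cd3d (0.0188 to 1.19 CPM), and 4 of 6 fibroblast markers, led by Col1a1 (337 to 5167 CPM) and Col1a2 (418 to 5586 CPM). Of 4 platelet markers 2 rose, Pf4 (12.6 to 51.9 CPM) and Gp1bb (3.38 to 9.38 CPM), and Pf4 lost its call without injured VEGFR3 fl/fl replicate 2 (log2 fold change 0.93 in place of 2.05) or any 1 Sham library. Of 7 smooth muscle markers 5 fell, led by Myh11 (2971 to 293 CPM) and Cnn1 (86.2 to 12.7 CPM), and 6 of 6 pigment cell markers fell, led by Pmel (8640 to 823 CPM) and Slc45a2 (280 to 29.4 CPM). The tested corneal epithelial markers Krt5 (8.97 to 0.505 CPM) and Krt12 (1.63 to 0.371 CPM) fell. Krt5 ranged from 0.394 to 18.2 CPM across Sham libraries and reached 0.689 CPM in injured VEGFR3 fl/fl, so its groups overlapped. Of 3 lens markers tested Cryaa rose (0.0561 to 23.2 CPM) and Bfsp2 fell (124 to 66.1 CPM), a call lost without Sham replicate 2, and the ciliary body markers Cacna1e (1.34 and 1.52 CPM) and Atp6v1c2 (0.769 and 0.662 CPM) did not pass the test. The Y-linked genes, led by Ddx3y and Eif2s3y, had 0 calls after injury by edgeR, with 0 at an unadjusted p under 0.05. The part of these cell types in the values of the 7 genes was not tested.

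Levels of different genes were compared only per transcript length, as approximate TPM, with the length of each gene's longest transcript taken from GENCODE M21. In Sham the order was Tie1 (41.3 TPM), Tek (27.2), Ptprb (19.9), Angpt2 (16.62), Angpt1 (11.3), Svep1 (2.15) and Angpt4 (0.715), and no neighbours in this order overlapped between libraries. In injured VEGFR3 fl/fl the order was Tie1 (75.7 TPM), Angpt2 (49.9), Tek (25.7), Svep1 (19.2), Ptprb (17.7), Angpt1 (15.9) and Angpt4 (4.86). There Tek, Svep1, Ptprb and Angpt1 overlapped their neighbours, so that their order was not settled. By this length Angpt2 lay below Tek in every Sham library and above it in every injured library. In the libraries labelled VEGFR3 iLECko, Tie1 (76.7 TPM) and Angpt2 (53.5) again led, and their libraries overlapped slightly. With the median transcript length in place of the longest, Ptprb came first in Sham (20.5 TPM) and Angpt2 first in injured VEGFR3 fl/fl (37.2 TPM, beside 34.6 for Tie1), so the order depends on which transcripts are counted.

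**Figure D5:**
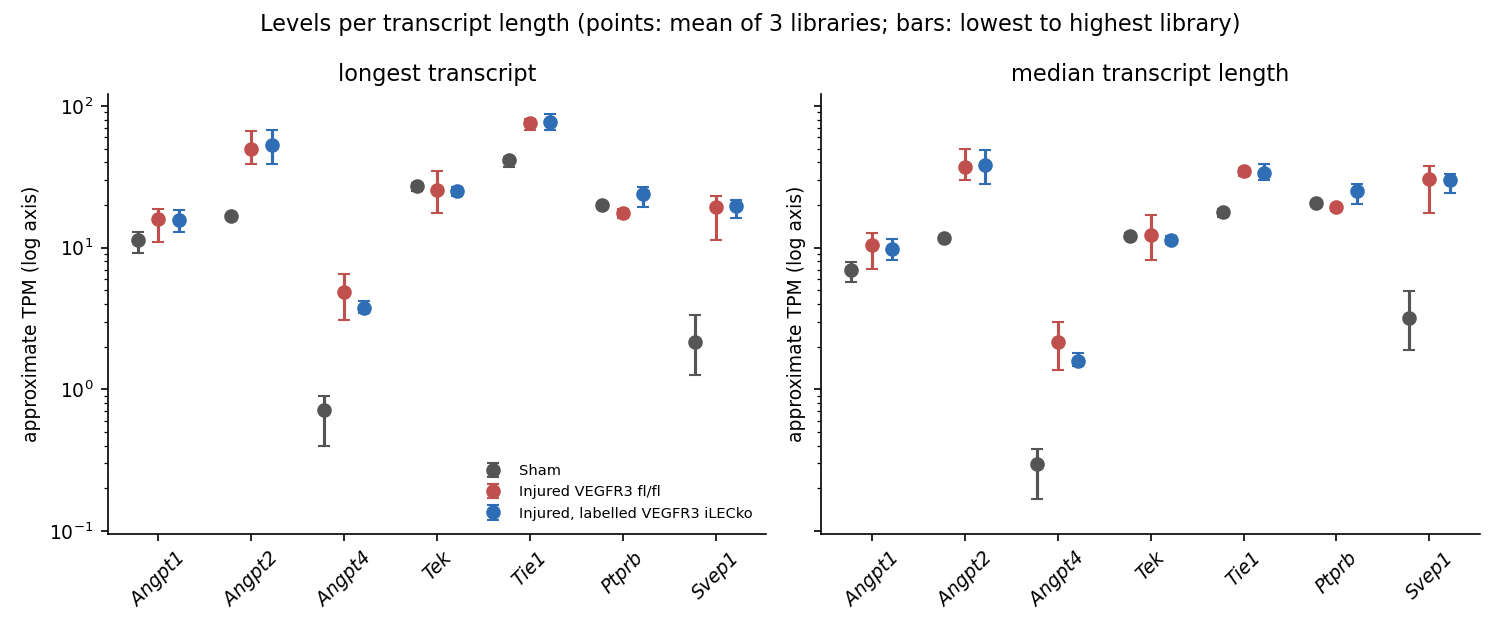
Approximate TPM of the 7 genes on a log axis, by the longest transcript (left) and by the median transcript length (right). Points are means of 3 libraries and bars run from the lowest to the highest library. Angpt4 is the lowest in each group in both panels, and Svep1 and Angpt4 show the widest steps between Sham and the injured groups.

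For each of the 7 genes, the genes whose log2 CPM ran most nearly alike over the 9 libraries were listed by Pearson's r, among 14221 genes with a mean of at least 1 CPM. These are descriptions over libraries of 3 groups, so genes that differ between Sham and injured irises score high. Tie1 resembled Ms4a6b, Gmfg and Adamts2 (r = 0.994 to 0.996), with 1271 genes over 0.95, and Angpt2 resembled Eif2s1, Ifnar1 and Ncapg2 (0.995 to 0.996), with 873. Svep1 resembled Sertad4, Fkbp5 and P2ry10b (0.987 to 0.993), with 516, and Angpt4 resembled Cd7, Slco2a1 and Plvap (0.989 to 0.992), with 479. Far fewer genes ran with the others. Angpt1 had 4 genes over 0.95, led by Cstad, Smoc1 and Amot (each 0.958), Ptprb had 4, led by Hspa13, Ngp and Pcgf5 (0.965 to 0.969), and Tek had 1, the natriuretic peptide receptor gene Npr1 (0.951), ahead of Zfp85 and Ccpg1 (0.949 and 0.947).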

How the data were processed

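Iris RNA from 3 groups was measured by RNA-Seq in 9 libraries. Per the paper's methods and the submitters' processing notes, the authors aligned single-end reads with HISAT2 2.0.4 and Bowtie2 2.2.5 to mm10. They deposited estimated counts per gene without normalization, and between 9.83% and 10.3% of the values of a library are not whole. The counting program and its use of strand are not given in the sources used here. A combined table with identical values and group averages was not used. The genotype tags of 2 labelled VEGFR3 iLECko libraries name another VEGFR number, and their titles were followed.

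Counts were rounded in R 4.3.3. Genes were kept by filterByExpr, normalized by TMM and tested with edgeR 4.0.16 (limma 3.58.1), with group as the only term over 9 libraries, and SEs were taken from the F statistic. The study's filter on TPM was replaced by filterByExpr, since the deposited values are counts. Ratios used edgeR log2 CPM with a prior count of 2 and exact permutation tests. Transcript lengths were found for 97.6% of the genes. DESeq2 1.42.0, other scalings, no filter, a replicate block, a Y-linked covariate and leaving out each library were alternatives. The 7 genes and all 18 lists were chosen with earlier results of these data known. All 7 genes are named, and in each list up to 2 called genes with the largest rise and fall after injury and any gene called between the injured groups. Other genes were named after their values were seen, namely Foxo1, Esm1, Lyve1, Mmrn1 and Rgs5. In simulated data for injured VEGFR3 fl/fl against Sham with 15010 genes, 166 of 200 genes changed 3-fold were recovered (83%), 0 in the wrong direction, with 10 false calls. Far more genes were called in the real comparison (22.1% upregulated and 17.5% downregulated). These rates therefore check the code and do not give the error rates of that comparison.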

Additional observations from a re-analysis of the deposited data

How the results depend on the processing

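The members called after injury numbered 4 to 5 upregulated and 0 downregulated over 17 alternatives, and 0 in each direction between the injured groups. Against Sham, the libraries labelled VEGFR3 iLECko had 4 to 6. The calls of Angpt2, Angpt4, Tie1 and Svep1 against Sham held in all 17, with the largest edgeR or DESeq2 adjusted p at 0.00108 after injury. Angpt1 lost its call after injury without Sham replicate 2 alone, and against Sham in the libraries labelled VEGFR3 iLECko in 10 settings, where its adjusted p reached 0.349.

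Signs turned as follows, always below the thresholds. For injured VEGFR3 fl/fl against Sham, Tek was -0.13 without injured VEGFR3 fl/fl replicate 1 (-0.13 to 0.48 with single libraries left out), and Ptprb was -0.043 with library size only. For the libraries labelled VEGFR3 iLECko against injured VEGFR3 fl/fl, Angpt1, Tek and Svep1 were 0.020, 0.16 and 0.11 without injured VEGFR3 fl/fl replicate 1, and their lowest values with single libraries left out were -0.43, -0.46 and -0.42. Angpt2 was 0.013 with library size only, 0.16 with the Y-linked covariate, 0.19 without injured VEGFR3 fl/fl replicate 2 (the lowest was -0.25) and 0.12 without labelled VEGFR3 iLECko replicate 1. For these libraries against Sham, Tek was -0.090 with library size only, -0.00305 without Sham replicate 2 and -0.0081 without labelled VEGFR3 iLECko replicate 2 (the highest was 0.050). Library size only moved the median of all genes to -0.16, 0.052 and -0.12 in these comparisons, and the share of upregulated genes among those called after injury from 55.8% to 44.1%. The cause of these turns was not tested.

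Over all lists, 2 genes were upregulated and 4 downregulated between the injured groups. The first count was 0 with the 6 libraries compared only, 0 with the replicate block, 0 with the Y-linked covariate and 0 to 2 with single libraries left out. The second was 12 with DESeq2, 0 with the 6 libraries, 1 with the replicate block, 1 with the Y-linked covariate and 0 to 10 with single libraries left out, the highest without injured VEGFR3 fl/fl replicate 3. Against Sham, the libraries labelled VEGFR3 iLECko had 14 downregulated list genes with that covariate. Among named list genes, Angptl4 and Pdpn fell below 1.5-fold after injury with library size only (0.56 and 0.45). Same-numbered libraries did not deviate together (r from -0.387 to 0.131 over 9 pairs, and 2 of 9 libraries correlated best with their own number). With 3 libraries a group, whether the numbers mark shared batches cannot be told from this. The paper mentions 3 sequencing experiments, and whether the replicate numbers follow them is not stated. With the replicate block 5, 0 and 4 members were upregulated in these comparisons, and Angpt1 lost its call against Sham in the last (edgeR adjusted p = 0.0556). The median transcript length moved 17 of 21 TPM means by more than 1 SD. With 3 libraries a group, exact permutation tests cannot go below p = 0.1.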
